A study of Mus musculus with 14 samples.

Results

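The libraries described here are the 7 control libraries of a study of DOT1L in mouse CD8 T cells, out of 14 libraries in all. They were taken by their column labels in the deposited gene count table. The WT group holds 3 libraries (WT 1 to 3) from mice that carry CreERT2, a Cre recombinase activated by 4-hydroxytamoxifen, in 1 copy, with wild-type Dot1l alleles and 1 copy of the OT-I T cell receptor transgene. These cells received 10 nM 4-hydroxytamoxifen on day 0. The DMSO group holds 4 libraries (DMSO 1 to 4) from mice with neither CreERT2 nor floxed Dot1l, again with 1 copy of OT-I, whose cells received 0.1% DMSO every 2 days. Neither group was meant to lose DOT1L, the histone methyltransferase under study. Both were activated through CD3 and CD28 and grown in culture until day 8, and mRNA was sequenced with a stranded kit. The other 7 libraries carry the perturbations: 3 labelled KO (CreERT2, floxed Dot1l, 4-hydroxytamoxifen) and 4 treated with the DOT1L inhibitor EPZ-5676 (EPZ), made from the same 4 animals as the DMSO libraries. The labels give no age and do not name the promoter that drives CreERT2. The mouse line, the presence of Cre, the drug and the culture experiment all differ between WT and DMSO in the same way, and their effects cannot be told apart.

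A CD8 T cell that is activated in culture leaves the naive state, divides, and can follow an effector path or keep features of memory cells. Naive and memory cells express receptors that bring them into lymph nodes, such as CCR7, under transcription factors such as TCF1, FOXO1 and KLF2. Effector cells make granzymes, cytokines and chemokines and depend on glucose and lipid synthesis, which the transcription factors MYC and SREBP2 drive.

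Library totals were 8702784, 5643724 and 20095758 counts in WT 1 to 3, and 20586093, 12293746, 8139437 and 11589004 counts in DMSO 1 to 4. Mitochondrial genes took 1.21% ± 0.184 of counts in WT and 1.02% ± 0.327 in DMSO (SD, n = 3 and 4, exact two-sided permutation p = 0.4, adjusted p = 0.667 over 5 measures). Over 7 libraries this test cannot go below 0.0571. The labelled sex fitted the X and Y transcripts in WT 1 and in all 4 DMSO libraries. WT 2, labelled male, held Xist at 1650.2 CPM and no Ddx3y count, and WT 3, labelled female, held Ddx3y at 139 CPM. The counts of many lists and some calls are therefore also given without both. A call given with no such value may also be lost without them. Cd8a stood at 668, 694 and 716 CPM in WT 1 to 3 and at 797, 849.8, 843 and 811 CPM in DMSO 1 to 4, where CPM are counts relative to the TMM-scaled library total. Trbv12-1, which encodes the variable segment of the OT-I beta chain, took from 97.8% to 98.4% of the counts of Trbv segments in WT and from 98.6% to 99.3% in DMSO. It was chosen after the values were seen. The exact Clopper-Pearson intervals (95%, counting error only) were lowest at 96.6% in WT and at 98.0% in DMSO.

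The control cultures differed in a large share of their genes. Of 11825 genes tested, 5748 (48.6%) passed a Benjamini-Hochberg adjusted p of 0.05 in edgeR's quasi-likelihood test: 2800 (23.7%) were higher in WT and 2948 (24.9%) were lower. Most differences were small, with a median absolute log2 fold change of 0.31 and a median of -0.02 over all genes. In 6086 genes (51.5%) the libraries of the groups did not overlap. A lack of overlap given below for a named gene is thus common in these data. At least 2-fold changes were found in 409 genes (3.46%) higher and 630 (5.33%) lower, and at least 4-fold changes in 60 genes higher and 55 lower. The first principal component held 63.5% of the variance and placed WT 1 to 3 at -38.1, -29.9 and -31.2, and DMSO 1 to 4 at 28.1, 28.0, 24.03 and 19.1. The second held 13.8% and set DMSO 3, at 28.9, apart from the other 6 libraries. With WT 1 as the only WT library, 1645 genes were higher and 1785 lower. Without both libraries no gene called in all 7 libraries was called in the opposite direction. All folds below are WT over DMSO, means are ± SD over 3 WT and 4 DMSO libraries, and adjusted p-values are from this test over all genes.

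Most defining markers of other cells were at 0 or low in both groups, while Ighm, a B cell marker, was above Cd8a in the DMSO libraries. Of 15 B cell markers, 3 could be tested and 4, among them Ms4a1, Pax5 and Igkc, held no count in any of the 7 libraries. Their summed level, from 474 to 583 CPM in WT and from 1032 to 1282 CPM in DMSO, was almost all Ighm, the heavy chain constant gene of IgM. Ighm stood at 464, 567 and 526 CPM in WT 1 to 3, against 1081, 1260.1, 1018 and 1013 CPM in DMSO 1 to 4, with no overlap. The Treg and helper list held 7 tested members of 8: Cd4 was lower in WT (0.356, 0.539 and 0.354 CPM, against 2.66, 3.57, 3.74 and 3.33 CPM in DMSO; log2 fold change -3.04), Foxp3 averaged 6.17 ± 2.54 CPM in WT and 12.4 ± 4.33 CPM in DMSO (adjusted p = 0.015, and 0.0713 without WT 1), and Ikzf4 was higher (1.63). The summed level of that list was 511 to 544 CPM in WT and 559 to 633 CPM in DMSO, with no member at 0. Of 18 myeloid markers 3 were tested, the sum was 19.1 to 22.2 CPM in WT and 9.09 to 14.8 CPM in DMSO, and Lyz2, Adgre1 and S100a8 were at 0. The gamma delta list, with 9 of 12 members in the table, gave 3 members higher and 1, Trdc, lower of 5 tested (not without WT 3, adjusted p = 0.0948), with sums of 211 to 264 CPM in WT and 242 to 260.0 CPM in DMSO. Of 12 erythroid and platelet markers 2 were tested and 5 were at 0, with sums of 4.15 to 5.69 CPM in WT and 7.48 to 8.36 CPM in DMSO; Gata1 was lower (adjusted p = 0.0167, and 0.111 without WT 3). In bulk RNA, fewer cells of a type and less RNA per cell cannot be told apart, and the part of such cells in the results was not tested.

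WT cultures held more granzyme transcripts than DMSO cultures, and no difference was called for the perforin transcript. Of 19 tested cytotoxic genes 8 were higher and 2 lower, with a median log2 fold change of 0.25, and 6 were higher and 1 lower without WT 2 and WT 3. Gzma, a granule serine protease, stood at 731, 412 and 644 CPM in WT 1 to 3, against 115, 66.9, 85.5 and 76.7 CPM in DMSO 1 to 4, a 6.91-fold difference (log2 2.79, SE 0.21, adjusted p = 3.53e-06). Gzmb, the main granzyme of cultured killer cells, reached 2074, 1418 and 1850.4 CPM in WT 1 to 3, against 952, 821, 1032 and 969 CPM in DMSO 1 to 4 (log2 fold change 0.92, adjusted p = 0.000133). In both genes the lowest WT library, WT 2, lay above the highest DMSO library. Gzmk had 16.6, 13.5 and 19.1 CPM in WT and 1.95, 1.87, 1.45 and 2.99 CPM in DMSO, and Gzmc 40.6, 24.6 and 30.5 CPM in WT and 8.41, 5.6, 10.7 and 8.19 CPM in DMSO. Both were low and did not overlap between the groups, with 8-fold and 3.95-fold higher levels in WT. Stx11, a syntaxin needed for granule release, was 2.58-fold higher at 27.6 ± 6.53 CPM in WT and 11 ± 1.51 CPM in DMSO. Prf1, which encodes perforin, had 23.8, 12.8 and 24.9 CPM in WT 1 to 3 and 17.6, 19.1, 21 and 28.5 CPM in DMSO 1 to 4. The Prf1 libraries of the groups interleave (log2 fold change -0.01, SE 0.21, adjusted p = 0.968). The 2 lower members, Rab27a (-0.33) and Unc13d (-0.25), encode parts of the granule docking machinery. Rab27a averaged 119.6 ± 9.09 CPM in WT and 151 ± 2.59 CPM in DMSO (adjusted p = 0.0656 without WT 2 and WT 3). The Unc13d call was lost without WT 1 (adjusted p = 0.113), WT 2 (0.0849) or DMSO 1 (0.0614). Gzmb and Gzmc are paralogs, and Gzmk spans the gene Esm1 on the opposite strand, with no strand setting of the counting given, so their reads may be shared.

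**Figure D1:**
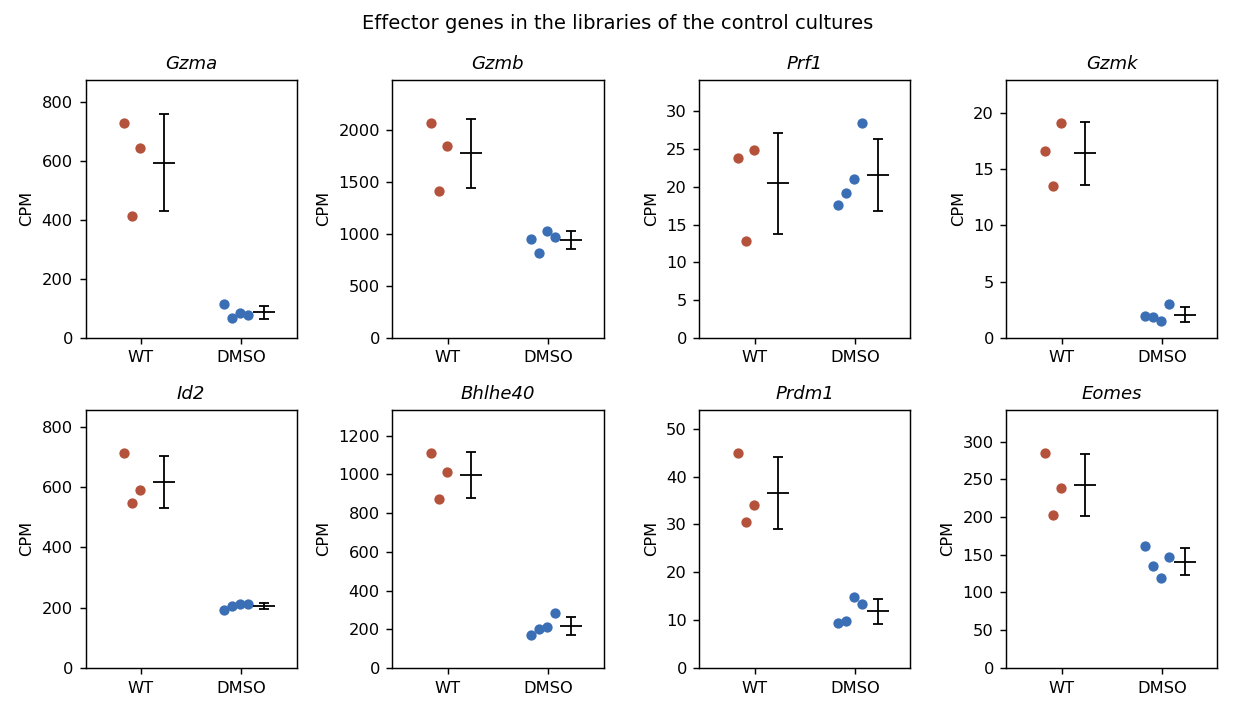
Levels in CPM (y axes, each from 0) of 8 effector genes in 3 WT libraries (left) and 4 DMSO libraries (right), with the mean as a line and the SD as a bar. Gzma, Gzmb, Gzmk, Id2, Bhlhe40, Prdm1 and Eomes are higher in every WT library than in any DMSO library, while the Prf1 points of the groups overlap.

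Transcripts of inflammatory chemokines and of several cytokines were higher in WT, although most were low. Of 15 tested members 10 were higher and 2 lower, with a median log2 fold change of 0.93, and without WT 2 and WT 3 they were 7 and 0. Ccl5, a chemokine that draws T cells and monocytes, stood at 110.1, 101.04 and 84.1 CPM in WT 1 to 3, against 41.3, 47.8, 53.1 and 51.5 CPM in DMSO 1 to 4 (log2 fold change 1.02). Its relatives Ccl4 (1.51) and Ccl3 (1.22) reached 20.2 ± 4.15 and 13.9 ± 3.21 CPM in WT, against 7.23 ± 1.27 and 6.1 ± 1.64 CPM in DMSO. Lta, which encodes lymphotoxin alpha, averaged 85.7 ± 8.6 CPM in WT and 40.3 ± 4.94 CPM in DMSO. All 4 genes kept the groups apart. Ifng was close to the detection limit at 2.97, 1.26 and 2.13 CPM in WT and 0.57, 0.568, 1.21 and 0.512 CPM in DMSO (log2 fold change 1.68, adjusted p = 0.00318) and the labels name no restimulation. Its lowest WT value, in WT 2, lay just above its highest DMSO value, in DMSO 3. Tnf, at 67.7 ± 5.4 CPM in WT and 64.6 ± 4.33 CPM in DMSO, was not called (adjusted p = 0.511), and Ltb, which encodes lymphotoxin beta, was lower in WT at 228 ± 11.3 CPM, against 306 ± 27.6 CPM in DMSO (adjusted p = 0.0614 without WT 2 and WT 3). A list of type 2 and type 17 cytokine genes had 3 tested members of 11. Gata3, a factor of type 2 cells, was lower (-0.63), and the low gene Il24 (2.87) was higher, as was Il1rl1 (1.15), whose call was lost without WT 1, WT 3, DMSO 2 or DMSO 4 (adjusted p from 0.0582 to 0.194).

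Receptors that T cells share with natural killer cells were in part higher in WT, with 7 of 13 tested members higher, 1 lower and a median log2 fold change of 0.98, which was -0.23 over the members left by a filter of at least 10 CPM in 3 libraries. Without WT 2 and WT 3, 5 were higher and 1 lower. Klrk1, which encodes the activating receptor NKG2D, stood at 227, 189 and 187 CPM in WT 1 to 3 and at 73.1, 55.8, 57.9 and 62.4 CPM in DMSO 1 to 4 (3.22-fold, adjusted p = 1.31e-06). Klrc1, which encodes the inhibitory receptor NKG2A, averaged 22.7 ± 2.29 CPM in WT and 8.62 ± 2.6 CPM in DMSO. Klra5, of the Ly49 receptor family, was 4.29-fold higher but low, at 3.74 ± 0.977 CPM in WT and 0.823 ± 0.192 CPM in DMSO. The defining gene Ncr1 held no count in any of the 7 libraries, and the summed level of the list was 681 to 796 CPM in WT and 578 to 678 CPM in DMSO. Cd226, an adhesion receptor of T and natural killer cells, was the lower member (-0.45). Natural killer receptor genes are paralogs with similar sequences, so reads may be split among them.

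Regulators of effector differentiation were divided, with 9 of 19 tested members higher and 4 lower (median log2 fold change 0.25). Among all genes tested 23.7% were higher and 24.9% lower. Bhlhe40, a repressor that T cells induce on activation, stood at 1111, 874 and 1012 CPM in WT 1 to 3, against 170.5, 199.8, 211 and 282 CPM in DMSO 1 to 4 (4.64-fold, adjusted p = 2.21e-06). Id2, an inhibitor of E proteins that favours effector cells, reached 713, 546 and 590.1 CPM in WT 1 to 3, against 191, 204, 211 and 212 CPM in DMSO 1 to 4 (3.02-fold). Prdm1, which encodes BLIMP1, had 45, 30.6 and 34.1 CPM in WT and 9.45, 9.82, 14.7 and 13.4 CPM in DMSO. These genes, and the interferon regulatory factor Irf8 at 85.8 ± 13.1 CPM in WT and 28.5 ± 7.53 CPM in DMSO, lay above every DMSO library in all 3 WT libraries. Without WT 2 and WT 3, 7 of the list were higher and 2 lower. Eomes, a T-box factor of effector and memory cells, was higher by less, with 285, 203 and 238 CPM in WT and 161, 135, 119 and 148 CPM in DMSO (log2 fold change 0.78, adjusted p = 0.000328). Tbx21, which encodes the related factor T-bet, ran the other way, at 14.7, 14 and 13.2 CPM in WT and 28.9, 20.5, 21.1 and 18.7 CPM in DMSO (log2 fold change -0.70, adjusted p = 0.0029, and 0.101 without WT 2 and WT 3). Stat4, which transmits interleukin 12 signals, was lower as well (-0.62). The activation marker Cd44 was slightly higher (0.28), at 222 ± 10.6 CPM in WT and 183 ± 9.87 CPM in DMSO, and its call was lost without WT 2 and WT 3 (adjusted p = 0.113).

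Genes of the naive and memory state were mostly lower in WT: 17 of 28 tested members were lower, 2 were higher, with the same counts without WT 2 and WT 3, and the median log2 fold change was -0.84. Ccr7, the chemokine receptor for lymph node entry, had 81, 78.4 and 74.9 CPM in WT and 273, 289.6, 194 and 178 CPM in DMSO (3-fold lower). S1pr1, the receptor for leaving lymph nodes, had 111, 125 and 116 CPM in WT and 438, 504, 349.5 and 332 CPM in DMSO (3.46-fold lower). The 3 WT libraries were close to each other in each of these genes, and the DMSO libraries, all higher, were spread more widely. The Kruppel-like factors that act on these homing genes were lower too. Klf3 was at 6.17, 8.27 and 8.76 CPM in WT 1 to 3, against 67.9, 70.3, 56 and 50.7 CPM in DMSO 1 to 4, a 7.79-fold difference (adjusted p = 8.32e-07). Klf2, a direct activator of S1pr1 in T cells, was at 33.1, 37.6 and 31.3 CPM in WT and 125, 119.7, 81.6 and 65.5 CPM in DMSO (2.92-fold lower). Tcf7, which encodes TCF1, had 687, 783 and 699.8 CPM in WT 1 to 3, against 1356, 1522, 1074 and 1245 CPM in DMSO 1 to 4 (log2 fold change -0.85, adjusted p = 0.000132). Its partner Lef1 (-1.16), the factors Ets1 (-1.04), Satb1 (-0.97), Foxo1 (-0.63) and Bcl11b (-0.84), and the interleukin 6 receptor genes Il6ra (-1.90) and Il6st (-1.11) followed the same direction. Il7r, the interleukin 7 receptor of naive and memory cells, was not called, at 40.4, 38.8 and 30.5 CPM in WT and 47, 41.5, 40.8 and 34.1 CPM in DMSO (log2 fold change -0.18, adjusted p = 0.251). Bcl2, the survival gene often high in memory cells, averaged 652 ± 52.6 CPM in WT and 654 ± 36.2 CPM in DMSO (adjusted p = 0.963). The 2 higher members were Eomes and the costimulatory receptor Cd28 (0.41). In these libraries Cd4, Foxp3 and Ighm were also lower in WT, as given above, and their part in these results was not tested.

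**Figure D2:**
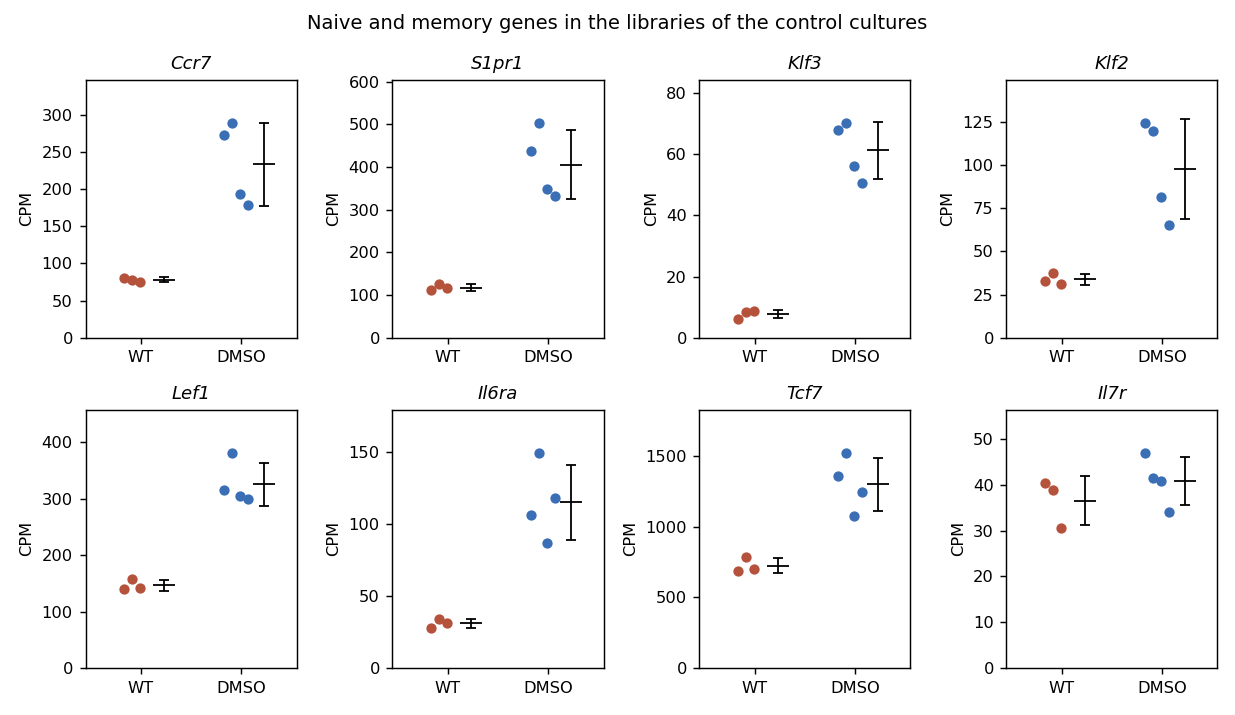
Levels in CPM (y axes, each from 0) of 8 naive and memory genes in 3 WT libraries (left) and 4 DMSO libraries (right), with the mean as a line and the SD as a bar. Ccr7, S1pr1, Klf3, Klf2, Lef1, Il6ra and Tcf7 are lower in every WT library than in any DMSO library, and Il7r overlaps.

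Receptors for traffic, adhesion and inhibition were called in both directions, the inhibitory ones in about the shares of all genes (23.7% higher and 24.9% lower). Among 22 chemokine receptor, integrin and adhesion genes tested, 10 were higher and 6 lower (median log2 fold change 0.13). The lower ones were 3 without WT 1 and 2 without WT 3, and without WT 2 and WT 3 there were 7 higher and 3 lower. Cxcr4, the receptor of the stromal chemokine CXCL12, had 12.8, 12.9 and 14.4 CPM in WT and 35.4, 31.2, 27 and 28.6 CPM in DMSO, and Cxcr6 81, 55.6 and 83.2 CPM in WT and 159, 164, 159 and 131 CPM in DMSO. Ly6c2, a surface marker of effector and memory CD8 cells, had 449, 236 and 319.7 CPM in WT and 93.5, 98.3, 119 and 152 CPM in DMSO. The chemokine receptors Cxcr4 and Cxcr6 were lower in every WT library and Ly6c2 was higher in every WT library. Itga1, the collagen-binding integrin CD49a, was 8.35-fold higher at a low level of 2.5 ± 0.47 CPM in WT and 0.287 ± 0.172 CPM in DMSO. Of 19 inhibitory receptor and exhaustion genes 5 were higher and 6 lower, against 4 and 7 without WT 2 and WT 3. Lag3 averaged 31.7 ± 1.21 CPM in WT and 15.3 ± 4.06 CPM in DMSO, whereas Ctla4 averaged 46.9 ± 5.51 CPM in WT and 95 ± 18.7 CPM in DMSO. Tox, a factor of exhausted cells, had 7.59, 11.7 and 11.9 CPM in WT and 28.3, 29.5, 25.4 and 24.3 CPM in DMSO. WT cells held more transcript of the inhibitory receptors Lag3 and Cd244a (1.16) and less of Ctla4, Btla (-0.99) and Tox. Pdcd1, which encodes PD-1, was low in both, at 1.54, 1.08 and 1.21 CPM in WT and 0.76, 0.974, 0.483 and 0.597 CPM in DMSO, and missed the threshold (log2 fold change 0.82, adjusted p = 0.0556, and 0.0364 without DMSO 2).

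Genes of the T cell receptor complex and its signals differed little in size, with 5 of 32 tested members higher, 11 lower and a median log2 fold change of -0.11, and 1 higher and 6 lower without WT 2 and WT 3. The lowest were Ptpn22, a phosphatase that restrains receptor signals, at 246 ± 15.2 CPM in WT and 436 ± 22.4 CPM in DMSO, and Sla (-0.67), an adaptor that lowers receptor levels. Cd8b1 was not called (log2 fold change 0.01, SE 0.09, adjusted p = 0.947). The lower Cd8a call (-0.25, adjusted p = 0.00978) was lost without WT 2 and WT 3 (adjusted p = 0.0766). Cytokine receptors were split evenly, with 6 higher and 6 lower of 22, near the shares of all genes (23.7% higher and 24.9% lower). Il2rb, the beta chain of the interleukin 2 and 15 receptors, had 1706, 1567 and 1582 CPM in WT and 1005, 873, 769 and 976 CPM in DMSO (log2 fold change 0.84), while Il2ra had 319.9, 288 and 298 CPM in WT and 373, 333, 304 and 339.6 CPM in DMSO (adjusted p = 0.132, and 0.0379 without DMSO 3). Cish, a feedback inhibitor that cytokine signals induce, had 429.6, 415 and 469 CPM in WT and 133, 140.2, 197 and 191 CPM in DMSO (2.66-fold), and Socs2, of the same family, was 2.06-fold higher. Of 8 feedback genes of STAT signals 4 were higher and 2 lower, and 3 and 1 without WT 2 and WT 3. The interferon receptor genes Ifngr1 and Ifnar1 were lower, Ifngr1 at 553 ± 17.4 CPM in WT and 962 ± 78 CPM in DMSO, and Ifnar1 with a log2 fold change of -0.53. Of 36 interferon response genes 9 were higher and 9 lower, about the shares of all genes (23.7% higher and 24.9% lower). They were 6 and 8 without WT 1 or without WT 3. Among them Irf1 was higher (0.93), and Gbp5 (-1.16), Ifi209 (-0.82) and Ifi203 (-0.77) were lower.

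**Figure D3:**
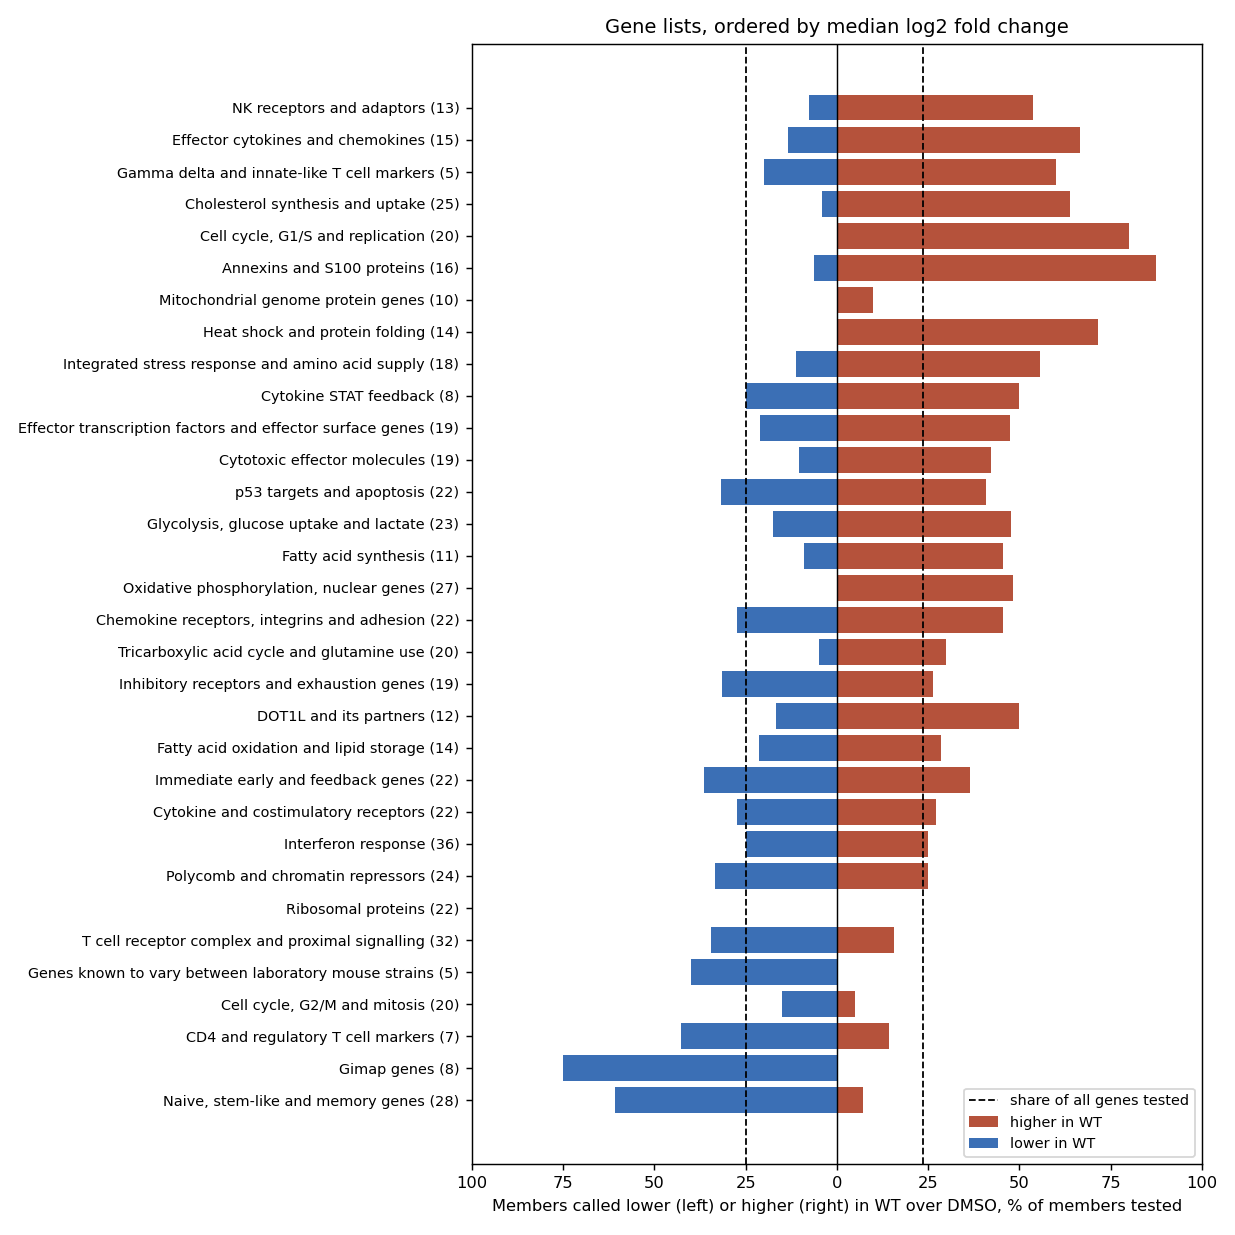
Share of tested members of each gene list, in percent, called lower (left) and higher (right) in WT than in DMSO, with dashed lines at the 24.9% and 23.7% of all 11825 genes. Cholesterol synthesis, G1/S and annexin and S100 genes lie far to the higher side, and naive and memory genes and the Gimap genes to the lower side.

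Transcripts for cholesterol synthesis and uptake were higher in WT, with some of the smallest adjusted p-values of all genes. Of 25 tested genes 16 were higher in WT, 1 was lower, and the median log2 fold change was 0.66, with 15 higher and 1 lower without WT 2 and WT 3. Insig1, a sterol-sensing anchor that holds SREBP2 in the endoplasmic reticulum, had 332, 277 and 303 CPM in WT, against 59.7, 62.6, 59.4 and 75.2 CPM in DMSO (log2 fold change 2.24, adjusted p = 5.34e-07). Hsd17b7, an enzyme of the late pathway, had 90.5, 82.5 and 82.5 CPM in WT, against 18.6, 18.5, 17.5 and 23.9 CPM in DMSO (4.33-fold). In both genes the lowest WT library lay far above the highest DMSO library, DMSO 4. Hmgcs1, an early enzyme of the pathway, averaged 350.2 ± 20.5 CPM in WT and 162 ± 18.5 CPM in DMSO. The later enzymes Cyp51 (1.45), Sc5d (1.15), Sqle (1.03), Lss (1.02) and Msmo1 (1.03) were higher as well. Srebf2, which encodes SREBP2 itself, was higher by less, with 661, 667 and 657 CPM in WT and 512, 496, 435 and 545 CPM in DMSO (log2 fold change 0.41, adjusted p = 0.00176, and 0.0579 without WT 2 and WT 3). The lower member, joined by Dhcr7 and Acat2 without DMSO 3, was Abcg1, a sterol exporter, at 49.3 ± 1.22 CPM in WT and 75.4 ± 6.22 CPM in DMSO. Mvk, Pmvk, Mvd, Nsdhl, Ebp and Dhcr7 belong to the same pathway and were not called, with log2 fold changes between -0.25 for Dhcr7 (adjusted p = 0.0272 without DMSO 3) and 0.09 for Ebp.

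**Figure D4:**
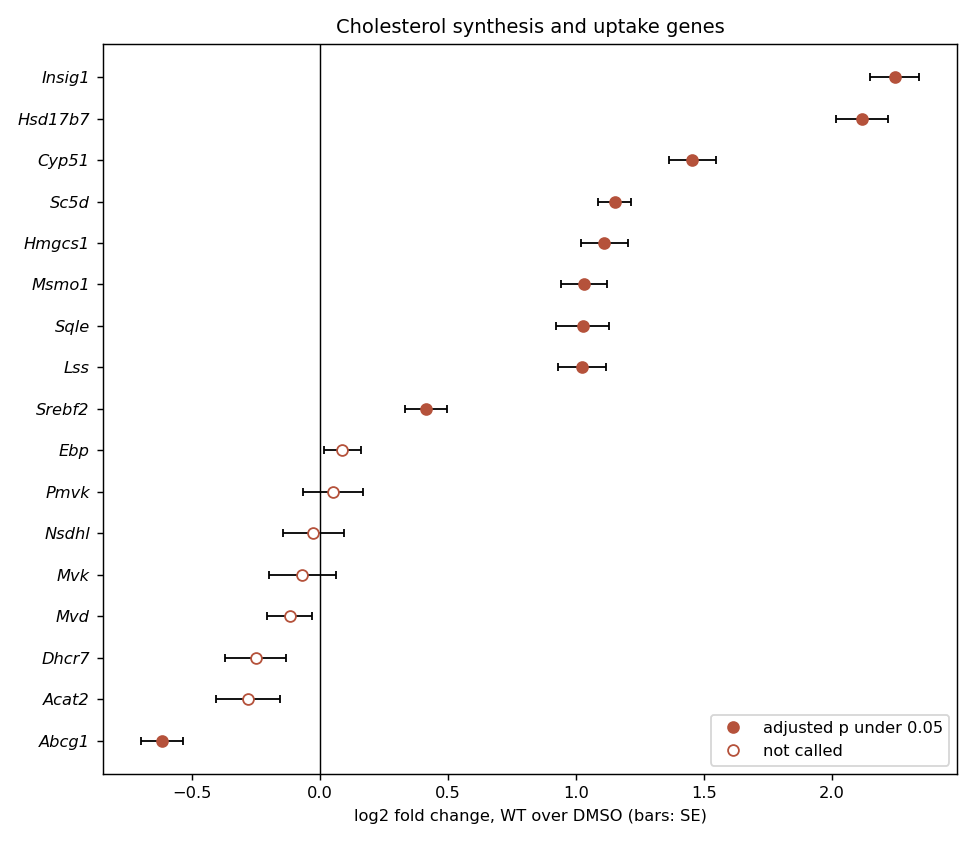
Log2 fold change of WT over DMSO (x axis) with its standard error for the genes of cholesterol synthesis and uptake named in the text, ordered by size and marked by call. Insig1 and Hsd17b7 lie above 2, and Abcg1 is the only gene shown that was called lower.

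Because 16 of the 25 tested genes of this list were higher, promoters of the list were searched for the letters of known motifs. These were a sterol regulatory element, TCACNCCAC, and the E-box CACGTG. The search covered both strands of the 250 bases before the RefSeq start (GRCm38.p6). Of the 26 list genes 17 had a promoter in the table. The first motif lay in 1 of them, Hmgcs1, and in 1.05% of all 32851 windows. The second lay in 5 (Abca1, Dhcr7, Hsd17b7, Insig1 and Sc5d) and in 6.02% of all windows. The list counts are of genes, which had 20 windows, while the shares are of windows, so they are unlike measures. A match is a description of the letters and not a site. The windows of Hmgcs1, Insig1 and Hsd17b7 are shown, with the matched motif in capitals, since these genes are among those that differed.
Hmgcs1, chr13:119690101-119690350, plus strand: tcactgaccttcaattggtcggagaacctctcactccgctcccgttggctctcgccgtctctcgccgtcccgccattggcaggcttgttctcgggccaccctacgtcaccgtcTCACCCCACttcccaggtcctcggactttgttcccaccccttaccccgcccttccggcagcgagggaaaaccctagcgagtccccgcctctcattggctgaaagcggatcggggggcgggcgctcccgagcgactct
Insig1, chr5:28071162-28071411, plus strand: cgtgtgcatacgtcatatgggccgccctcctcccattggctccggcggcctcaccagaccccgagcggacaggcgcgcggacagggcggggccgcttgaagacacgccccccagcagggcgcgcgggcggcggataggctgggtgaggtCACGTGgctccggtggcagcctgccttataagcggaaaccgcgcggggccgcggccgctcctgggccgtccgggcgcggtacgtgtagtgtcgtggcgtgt
Hsd17b7, chr1:169969206-169969455, minus strand: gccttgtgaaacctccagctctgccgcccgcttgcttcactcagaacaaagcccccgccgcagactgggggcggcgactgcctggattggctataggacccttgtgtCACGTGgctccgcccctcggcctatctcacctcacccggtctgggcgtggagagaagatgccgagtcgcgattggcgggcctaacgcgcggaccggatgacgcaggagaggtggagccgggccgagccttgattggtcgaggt

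Transcripts of glucose metabolism differed in selected steps. Of 23 tested genes of glycolysis, glucose uptake and lactate handling 11 were higher and 4 lower (median log2 fold change 0.18). Hk2, the inducible hexokinase, had 205, 187 and 178 CPM in WT 1 to 3, against 34.4, 35.6, 41.2 and 47.7 CPM in DMSO 1 to 4 (log2 fold change 2.26, SE 0.11, adjusted p = 6.67e-07). Slc2a1, which encodes the glucose transporter GLUT1, had 151, 142 and 154 CPM in WT and 81.3, 80.8, 78.8 and 102 CPM in DMSO (1.74-fold). Pfkfb3, whose product activates phosphofructokinase, had 83, 80.7 and 76.4 CPM in WT and 47.7, 45.8, 44.5 and 46.3 CPM in DMSO (1.73-fold). For these genes of glucose uptake and phosphorylation the groups did not overlap, and the later enzymes Eno1 (0.44), Pkm (0.41) and Ldha (0.29) were higher by less. Without WT 2 and WT 3 the calls of these later enzymes were lost (adjusted p from 0.102 to 0.166), and 7 genes of the list were higher and 2 lower. The Pkm call was also lost without WT 3 (adjusted p = 0.063), and the lower genes were 2 in DESeq2 and without WT 1, WT 2, DMSO 1 or DMSO 4. Gapdh (adjusted p = 0.786) and Aldoa (adjusted p = 1) were not called. Pdk1, the kinase that keeps pyruvate out of mitochondria, was lower in WT, at 157, 165 and 145 CPM, against 259, 314, 253 and 258 CPM in DMSO, as was Pfkfb4 (-1.09).

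Nuclear genes of oxidative phosphorylation moved by small amounts, and few genes of the mitochondrial genome were called. Of 27 nuclear genes of oxidative phosphorylation 13 were higher and 0 lower, with a median log2 fold change of 0.16. The higher ones were 7 with upper quartile factors, 8 with no filter on low counts, 8 without WT 1, 7 without WT 3 and 4 without WT 2 and WT 3. Cycs, which encodes cytochrome c, had 53.7, 44.4 and 47.1 CPM in WT and 29.5, 32.5, 29.5 and 32.3 CPM in DMSO, and Ndufa4 a log2 fold change of 0.55. Of 10 protein genes of the mitochondrial genome only mt-Nd1 was called, at 1486, 1566 and 2083 CPM in WT and 1525, 792, 1077 and 954 CPM in DMSO, and it was not without WT 3 (adjusted p = 0.0807). The median log2 fold change of these 10 genes was 0.35. The count called was 6 with no filter on low counts, 4 without DMSO 1, 3 without DMSO 3 and 0 without WT 3. Of 20 genes of the tricarboxylic acid cycle and glutamine use 6 were higher and 1, Idh2, was lower, and 3 and 1 without WT 2 and WT 3 (3 lower without DMSO 3, log2 fold change of Idh2 -0.44). Over all genes tested 23.7% were higher and 24.9% lower. In fatty acid oxidation and storage 4 of 14 were higher and 3 lower, near these shares. They were 3 and 2 without WT 3. Acsl1, which activates long fatty acids, had 27.2, 29.7 and 27.8 CPM in WT and 7.36, 8.6, 8.57 and 8.19 CPM in DMSO (3.47-fold), and Fabp5, a fatty acid carrier, was 1.99-fold higher. Cpt2, an enzyme of the mitochondrial import of fatty acids, was 2.08-fold lower at 4.55 ± 1.37 CPM in WT and 9.97 ± 1.75 CPM in DMSO. For fatty acid synthesis, 5 of 11 genes were higher and 1 lower (3 and 0 without WT 2 and WT 3), and Fasn, the fatty acid synthase, had 559, 770.0 and 525 CPM in WT and 283, 245, 339 and 347 CPM in DMSO (2.04-fold). All 3 WT libraries lay above all 4 DMSO libraries for Fasn and Acsl1 and below them for Cpt2.

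The growth regulator Myc and the stress response to amino acid shortage were higher in WT. Myc had 744, 674 and 646 CPM in WT 1 to 3, against 307, 377, 329.9 and 327 CPM in DMSO 1 to 4 (log2 fold change 1.04, SE 0.09, adjusted p = 6.56e-06). Of 18 genes of the integrated stress response 10 were higher and 2 lower (median log2 fold change 0.32), and 10 and 1 without WT 2 and WT 3. Atf4, its central factor, had 422, 339.8 and 375 CPM in WT and 224, 229, 212 and 249 CPM in DMSO, and Sesn2, a stress-induced inhibitor of mTORC1, had 168, 137 and 178 CPM in WT and 38.6, 35.4, 37.9 and 49.1 CPM in DMSO. Both were higher in every WT library, Sesn2 by 4.02-fold. The amino acid transporter subunits Slc3a2 (0.79) and Slc7a5 (0.60) were higher, while Trib3, an ATF4 target that acts as a feedback inhibitor, was lower at 32.1 ± 4.59 CPM in WT and 65.9 ± 7.75 CPM in DMSO. Among protein folding genes 10 of 14 were higher and 0 lower (median 0.35), and 4 were higher without WT 2 and WT 3. Hspa5, the chaperone of the endoplasmic reticulum, averaged 448 ± 31.8 CPM in WT and 254 ± 27.4 CPM in DMSO, and Xbp1, a factor of its stress response, 149.5 ± 5.49 CPM in WT and 70.1 ± 6.77 CPM in DMSO. Of 22 ribosomal protein genes edgeR called 0 and DESeq2 called 1, Rps2, higher, with 1 higher and 0 lower at an unadjusted edgeR p under 0.05.

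Genes of DNA replication were higher in WT and genes of mitosis were not. Of 20 G1/S genes 16 were higher and 0 lower (median log2 fold change 0.54), while of 20 G2/M genes 1 was higher and 3 were lower (median -0.13). Without WT 2 and WT 3, 8 G1/S genes were higher. Of the G2/M genes 6 were lower with no filter on low counts, 0 without WT 1, 1 without WT 2 or DMSO 4, and 9 without WT 3. Cdc6, which loads the replicative helicase, had 38.1, 39.7 and 45 CPM in WT and 25.2, 19.2, 20.04 and 24.5 CPM in DMSO. Pcna, the polymerase clamp, had 353, 296 and 359.8 CPM in WT and 218, 193, 208 and 233 CPM in DMSO, and E2f1 averaged 41.6 ± 4.49 CPM in WT and 24.8 ± 3.7 CPM in DMSO. These replication genes did not overlap between the groups, as was found for 51.5% of all genes tested. Plk1, a mitotic kinase, had 46, 57 and 83.3 CPM in WT and 115, 87.1, 79.8 and 112 CPM in DMSO and overlapped although it was called (log2 fold change -0.65, adjusted p = 0.0144, but 0.071 without WT 1 and 0.0518 without WT 2). Mki67, the usual marker of dividing cells, had 638, 802 and 679.5 CPM in WT and 524, 411, 701 and 657 CPM in DMSO (adjusted p = 0.142, and 0.0359 without DMSO 3). The shares of cells in each phase were not measured, and their part in the other results was not tested.

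Genes that promote and oppose cell death were found on both sides, as were genes in general (23.7% of all tested higher and 24.9% lower). Bcl2l11, which encodes the pro-apoptotic protein BIM, had 110.2, 116 and 106 CPM in WT 1 to 3, against 316, 297, 287 and 262 CPM in DMSO 1 to 4 (log2 fold change -1.39, SE 0.08, adjusted p = 9.54e-07). Bcl2l1, which encodes the anti-apoptotic BCL-XL, had 232, 211 and 226 CPM in WT, against 96.1, 100.6, 91.8 and 111 CPM in DMSO (log2 fold change 1.16). Neither gene overlapped between the groups. Of 22 p53 targets and apoptosis genes 9 were higher and 7 lower, the higher ones 5 without WT 3 or without DMSO 2, and 5 and 5 without WT 2 and WT 3. Sesn1 (-1.41) and Bbc3, which encodes PUMA (-1.05), were lower, and Cdkn1a, which encodes the cell cycle inhibitor p21, was higher (0.87). The promoters of cell death Bax (0.26), Bak1 (0.33) and Pmaip1 (0.19) were higher. Mcl1, which opposes it, was lower (-0.29), as was Bid, of the same list (-0.32). The Pmaip1 call (edgeR adjusted p = 0.0499) was lost in DESeq2 and without WT 1, WT 2, WT 3, DMSO 1, DMSO 2 or DMSO 4. The Bak1 call was lost without WT 1, WT 3 or DMSO 2, that of Mcl1 without WT 2 and that of Bid without WT 3.

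Immediate early genes, which respond within a short time to receptor signals, showed opposite directions within families. Calls over all genes tested were 23.7% higher and 24.9% lower. Egr1 had 22.5, 25.5 and 29.7 CPM in WT 1 to 3, against 199, 195, 145 and 255 CPM in DMSO 1 to 4, 7.57-fold lower in WT (log2 fold change -2.92, adjusted p = 1.44e-06). Egr2 averaged 3.61 ± 0.693 CPM in WT and 8.2 ± 3.53 CPM in DMSO and was lower too, whereas Egr3 averaged 2.59 ± 0.118 CPM in WT and 0.779 ± 0.354 CPM in DMSO and was higher. The Egr2 and Egr3 calls were lost without WT 2 and WT 3 (adjusted p = 0.221 and 0.0527). Also higher were Fosl2, an AP-1 subunit at 174 ± 26 CPM in WT and 52.5 ± 3.13 CPM in DMSO, and Dusp4, a MAP kinase phosphatase with a log2 fold change of 1.42. Dusp6, the phosphatase of ERK, was lower (-0.65). Of 22 such genes 8 were higher and 8 lower, and 7 and 5 without WT 2 and WT 3.

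Among chromatin regulators, Dot1l and some of its partners differed, and Polycomb and repressor genes were called in about the shares of all genes (23.7% higher and 24.9% lower). Dot1l itself had 132, 137 and 130.4 CPM in WT 1 to 3, against 91.4, 79.6, 93.1 and 93.9 CPM in DMSO 1 to 4 (1.49-fold, log2 0.57, adjusted p = 9.37e-05). No Dot1l value of one group reached those of the other. Of 12 tested genes of DOT1L and its partners 6 were higher and 2 lower (5 and 2 without WT 2 and WT 3). The elongation factor genes Eaf1 (1.08) and Aff1 (0.84) were higher, and Mllt10, which encodes the DOT1L cofactor AF10, and Men1, which encodes menin, were lower. Men1 had 21.7, 25.4 and 31 CPM in WT and 68.6, 60.5, 52.4 and 55 CPM in DMSO, and Mllt10 averaged 54.1 ± 1.58 CPM in WT and 84 ± 3.4 CPM in DMSO. Of 24 Polycomb and repressor genes 6 were higher and 8 lower, the lower ones 5 without WT 3, and 3 were higher and 7 lower without WT 2 and WT 3. The histone H3 methyltransferase genes Ezh1 and Ezh2 were both lower, Ezh1 at 38.9, 50.2 and 42.6 CPM in WT and 111, 106, 103 and 92.7 CPM in DMSO and Ezh2 with a log2 fold change of -0.67, while Jarid2, a cofactor of the same complex, was higher (0.74).

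Further groups leaned strongly to 1 side. Annexin, S100 and related genes, which mark activated and memory T cells, were higher in 14 of 16 tested and lower in 1 (median log2 fold change 0.54), and 11 and 0 without WT 2 and WT 3. S100a4 had 15.4, 10.1 and 9.72 CPM in WT and 4.18, 3.49, 3.14 and 3.93 CPM in DMSO, and S100a6, Lgals3 and Vim had log2 fold changes of 0.68, 0.77 and 0.57. Of 8 Gimap genes, a cluster of GTPases of lymphocyte survival, 6 were lower and 0 higher (median -0.56), with 5 lower without WT 2 and WT 3. Gimap1 had 54.6, 45.5 and 53.8 CPM in WT and 139, 140.4, 109.9 and 122 CPM in DMSO, and Gimap8 97.3, 108 and 94.9 CPM in WT and 212, 187, 228 and 169.7 CPM in DMSO. In both groups of genes the WT and DMSO libraries stayed apart for the members named here, in opposite directions. Esr1, whose product binds 4-hydroxytamoxifen, was slightly higher in WT at 9.25 ± 1.5 CPM, against 6.07 ± 0.691 CPM in DMSO (adjusted p = 0.00831, and 0.186 without WT 2 and WT 3). The oestrogen target genes Greb1 and Pgr were at 0 or near it in both groups. Of 9 genes known to vary between laboratory mouse strains 5 were tested, 0 were higher and 2 lower, Trim30d (-1.03) and Fgfbp3 (-0.58), whose call was lost without WT 1, WT 3, DMSO 1, DMSO 2 or DMSO 3.

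The largest changes included genes outside these lists. Esm1, a secreted proteoglycan, had 16.5, 11.9 and 16.8 CPM in WT and 1.8, 1.14, 1.57 and 1.02 CPM in DMSO (10.7-fold, adjusted p = 1.31e-06), and Per2, a circadian repressor, 19, 21.8 and 16.4 CPM in WT and 1.9, 2.84, 1.57 and 1.96 CPM in DMSO (8.97-fold). Mfsd2a, a transporter of lysophospholipids, averaged 32.5 ± 2.77 CPM in WT and 4.67 ± 1.08 CPM in DMSO. Ahr, the aryl hydrocarbon receptor, had 14.1, 11.5 and 13 CPM in WT and 1.76, 2.11, 2.66 and 3.16 CPM in DMSO (5.5-fold). Each of these was high in all 3 WT libraries and low in all 4 DMSO libraries. Sema7a, a membrane semaphorin, was 10.5-fold higher but uneven, with 5.46, 1.98 and 7.69 CPM in WT and 0.475, 0.649, 0.483 and 0.427 CPM in DMSO. On the lower side, after Klf3 and Egr1, stood zinc finger genes such as Zfp60, at 2.02, 1.26 and 1.87 CPM in WT and 14.4, 10.7, 11.7 and 8.36 CPM in DMSO. Zfp638 (-1.70), Sla2, an adaptor that restrains T cell receptor signals (-1.27), Nod1, a sensor of bacterial cell walls (-1.44), and Cables1 (-1.78) had the smallest adjusted p-values, with Klf3 and Bcl2l11, among lower genes of at least 50 CPM whose groups did not overlap. On the higher side these included Insig1, Hsd17b7 and Hk2, with Dis3, a catalytic subunit of the RNA exosome (1.40), and Gnl3, the nucleolar protein nucleostemin (1.45).

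The knockout and inhibitor experiments can also be compared in the 7 libraries that WT against DMSO does not use, KO against EPZ, where the DOT1L perturbations come on top of the other differences between the experiments. The EPZ libraries come from the animals of the DMSO libraries, so these comparisons are not wholly independent. KO against EPZ called 7912 of 12816 genes (61.7%), of which 3866 (30.2%) were higher and 4046 (31.6%) lower. Of 11753 genes tested in both comparisons, 2793 were higher in WT than in DMSO, and 2297 of them were higher in KO than in EPZ, which is 82.2% of that list and 66.9% of the 3432 genes higher in KO; 29.2% of all these genes were higher in KO. Another 50 (1.79%) were lower in KO. Of 2943 genes lower in WT, 2469 were lower in KO, which is 83.9% of that list and 62.7% of the 3940 genes lower in KO, against 33.5% of all these genes; 23 (0.782%) were higher in KO. Gzma had a log2 fold change of 2.79 in WT over DMSO beside 3.45 in KO over EPZ, Insig1 2.24 beside 2.11, Ccr7 -1.59 beside -2.98, and Klf3 -2.96 beside -3.53. In the libraries labelled KO the Dot1l transcript was higher than in EPZ (log2 fold change 1.01). A count over the whole gene does not show whether a floxed exon was lost.

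**Figure D5:**
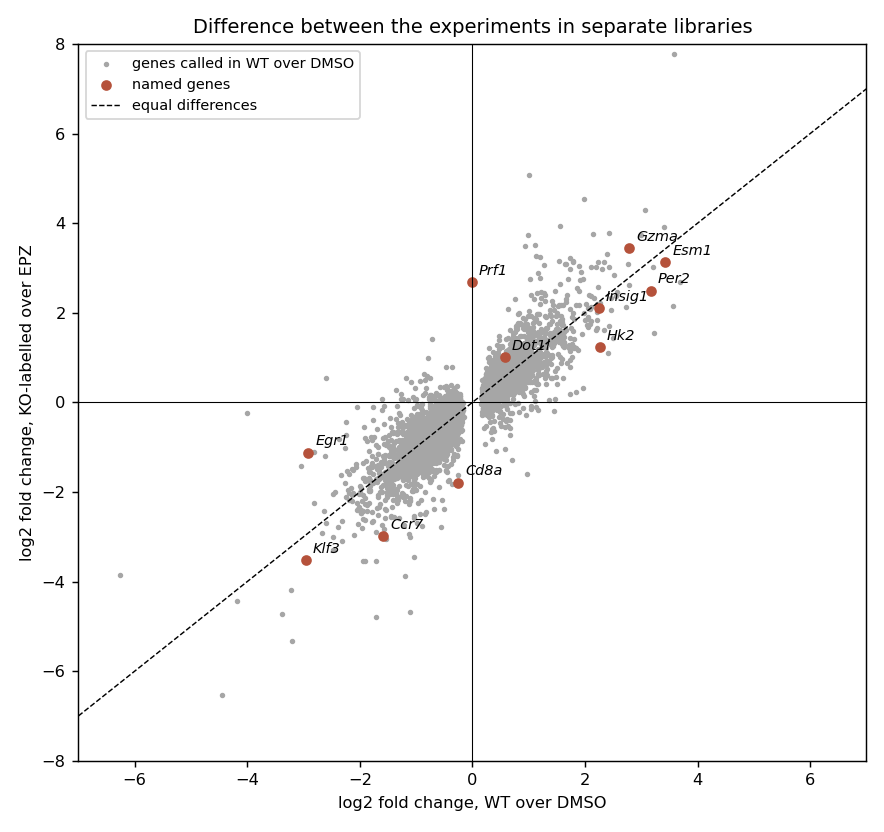
Log2 fold change of WT over DMSO (x axis) and of KO over EPZ (y axis) for genes called in WT against DMSO, with selected genes labelled. Most points lie in the lower left and upper right, and Prf1, labelled although not called on the x axis, lies near 0 there and at 2.68 on the y axis.

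Some genes differed between the pairs. In a fit of all 14 libraries the difference of the differences was called in 961 of 12639 genes (7.6%), and in 543 (9.45%) of the 5748 genes called in WT against DMSO. The fit had no term for the 4 animals that the EPZ and DMSO libraries share. The log2 fold change of Prf1 was -0.01 in WT over DMSO beside 2.68 in KO over EPZ (adjusted p of the difference = 6.14e-05). That of Cd8a was -0.25 beside -1.79, and that of Il7r -0.18 beside -1.45. The perforin, CD8 alpha and interleukin 7 receptor transcripts differed little between the control cultures and more between the perturbed ones. Egr1 and Hk2 lay further apart between the controls, Egr1 at -2.92 in WT over DMSO beside -1.12 in KO over EPZ, and Hk2 at 2.26 beside 1.24.

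The perturbations can be set beside the difference between the controls, with the caution that each shares libraries with it. EPZ over DMSO was called in 2463 of 12208 genes (20.2%, with 11.9% higher and 8.31% lower), and KO over WT in 4678 of 11570 (40.4%, with 20.3% higher and 20.2% lower). For Gzma the log2 fold changes were 1.02 in EPZ over DMSO and 1.68 in KO over WT, beside 2.79 in WT over DMSO. For Ccr7 they were -1.08 and -2.47, beside -1.59, and for Insig1 0.40 and 0.26, beside 2.24. For Hk2 they were 0.66 and -0.36, beside 2.26. The EPZ over DMSO fit had no term for the shared animals. These values were not tested against each other, since the comparisons share libraries. Of the 25 cholesterol genes, EPZ over DMSO called 11 higher and 1 lower (median 0.24), and KO over WT 8 higher and 4 lower (median 0.14). Of the 28 naive and memory genes, EPZ over DMSO called 1 higher and 13 lower (median -0.37), and KO over WT 2 higher and 23 lower (median -0.86).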

How the data were processed

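RNA of 14 CD8 T cell libraries was sequenced. The count table that the authors deposited holds unnormalized reads in 14 columns, 1 per library. TopHat2 2.1, Bowtie 1.1, HTSeq and the mm10 build are named in the submitters' processing notes. How HTSeq treated strand, and with which annotation release, is not given in the sources used here. A nameless row with no reads was dropped, which leaves 55486 genes.

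WT 1 to 3 and DMSO 1 to 4 were fitted alone in edgeR 4.0.16 (R 4.3.3) with TMM factors, filterByExpr (minimum count 10, minimum total 15) and the quasi-likelihood F-test. Genes were called at a Benjamini-Hochberg adjusted p of 0.05 over all genes tested. Each standard error is the log2 fold change over the root of F. The depth of 5643724 to 20586093 counts per library limits low genes, and a count of 0 allows up to 3 counts of a group's total (0.0889 CPM in WT and 0.0562 CPM in DMSO). Intervals and floors cover counting error only. On simulated data of 11839 genes, 84% of 50 genes changed 1.5-fold and 83.3% of 48 genes changed 2-fold were recovered. Of the simulated calls 8.59% were false, above the threshold of 0.05. Far fewer genes were changed there than were called here, so these shares may not hold for the real libraries. No replicate was a copy of another (chi-square per degree of freedom 6.62 to 18.1). Library measures were compared by exact permutation over 35 splits.

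The members and the 38 gene lists (701 entries) were chosen with earlier results of these data known, and lists are described by counts and medians with no test. The rule named 17 fixed genes, the 12 largest changes per side (at least 5 CPM, groups not overlapping), the 6 smallest p-values per side under the same limits but at least 50 CPM, up to 4 called members per list, and the 8 genes per side largest in both WT against DMSO and KO against EPZ. Other list members in the text were chosen after their values were seen. Replicate numbers do not pair WT with DMSO, which are different animals. Alternatives were DESeq2 1.42.0, other factors, filters, thinned counts, a replicate block, labelled sex and left-out libraries. The labelled sex went against the transcripts in WT 2 and WT 3, so that term cannot adjust for sex. In WT against DMSO the replicate block cannot adjust for the animal. Promoter sequences are from RefSeq (GRCm38.p6). Results of some list members are not reported here.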

Additional observations from a re-analysis of the deposited data

Results flagged for a closer look

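Among the 4 DMSO libraries, 1 value lay apart from the other 3 in 9 of 176 genes and measures checked, where chance gives about 1 in 20. In DMSO 3, Ifng was at 1.207 CPM (others 0.512 to 0.5699), Zfp638 at 92.48 CPM (others 76.35 to 76.46) and Rps2 at 1087 CPM (others 1350.0 to 1378). In DMSO 4, Ifnar1 was at 220.5 CPM (others 232.4 to 233.3), Cxcr6 at 131.2 CPM (others 158.9 to 164.3), Got1 at 57.78 CPM (others 50.67 to 51.52) and Dusp4 at 47.96 CPM (others 32.1 to 33.83). In DMSO 2, Tdrp was at 49.65 CPM (others 33.97 to 36.23) and Pdk1 at 314.5 CPM (others 253 to 259.5). The WT group, with 3 libraries, was not checked in this way.

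Over all genes the difference of the differences was called in 961 of 12639 (7.6%). Named genes were in part picked by their WT over DMSO and KO over EPZ values, so their share is not comparable with it. For 12 of 51 named genes the WT over DMSO difference differed from the KO over EPZ difference in the fit of all 14 libraries. The log2 difference between them, WT over DMSO minus KO over EPZ, was 1.55 for Cd8a (edgeR adjusted p = 4.18e-06), 1.19 for Cd8b1, 1.40 for Ccr7, 1.28 for Il7r, 0.91 for Ighm, 1.03 for Hk2, 0.56 for Dis3 and 0.54 for Nod1. It was -2.68 for Prf1 (adjusted p = 6.14e-05), -1.79 for Egr1, -0.67 for Tubb6 and -0.43 for Dot1l (adjusted p = 0.0332). Of these, Cd8a, Ccr7, Ighm and Nod1 were lower in WT than in DMSO, and further down in KO than in EPZ.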

How the results depend on the processing

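The counts of genes kept within 1.5 times of 2800 higher and 2948 lower under every alternative but 2. With WT 1 as the only WT library, without WT 2 and WT 3, there were 1645 higher and 1785 lower (1484 and 1617 of them also called in KO against EPZ), and 3328 of 5748 calls (57.9%) were kept. That fit assumes that the lone WT library varies like the DMSO libraries. A test for changes above 1.5-fold (glmTreat) left 458 higher and 618 lower (439 and 592 also in KO against EPZ), as its construction asks for more. Leaving out each library in turn gave 2304 to 2892 higher and 2398 to 2944 lower, with 1978 to 2334 and 2104 to 2479 shared with KO against EPZ. Upper quartile factors gave 2420 higher and 3379 lower, with a shift of -0.05 over all genes.

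Same-numbered libraries did not deviate together (correlations of -0.248, 0.0575 and -0.278 for numbers 1 to 3), so the numbers do not pair the animals. A replicate block gave 2126 higher and 2375 lower. With it 5 genes of oxidative phosphorylation and 3 of the tricarboxylic acid cycle were higher, and 4 T cell receptor genes, 3 chemokine receptor and adhesion genes, 2 of glycolysis and 1 of G2/M were lower. The DMSO and EPZ libraries do share animals. With the animal as a replicate block, added after seeing the data, the difference of differences was called in 1348 genes (10.7%) and EPZ over DMSO in 3163 (25.9%), and the 12 named differences kept their calls.

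Of 2880 values of 171 named genes under the alternatives, 48 lost a call (17 genes), 5 gained a call (3 genes) and 0 called values reversed. Most named genes were picked because they were called here (162 of 171 were), which favours few losses. Over all 5748 calls, leaving out 1 library kept from 80.1% (without WT 1) to 95.1% (without DMSO 3). List medians reversed in 5 of 644 values. With at least 10 CPM in 3 libraries, which leaves fewer members, the medians were -0.23 for NK receptors, -0.13 for the oestrogen receptor list, -0.65 for type 2 and type 17 cytokine genes and 0.011 for the strain list. With thinned counts that of p53 targets was -0.022. The cause of the last was not tested. Of 5 equal bins of genes by expression, the lowest had 10.6% higher and 18.9% lower calls, the next 16.7% and 34.9%, and the highest 34.6% and 19.4%.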

Other observations

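On chromosome 13 (mm10), Gzma (113093825 to 113100981, minus strand) has Gzmk 77.78 kb and Esm1 115.8 kb away, and all 3 were among the 12 largest higher changes in WT over genes of at least 5 CPM whose groups did not overlap. Esm1 lies within the span of Gzmk (113171608 to 113225908) on the opposite strand. The strand setting of the counting is not given, so reads of the 2 genes may not be separable. Within 1 Mb of Gzma 11 genes were tested, of which 4 were higher and 3 lower, where 23.7% of all genes tested were higher and 24.9% lower. Snx18, 498 kb from Gzma, was the other higher gene (log2 fold change 0.33), Il6st was among the lower ones (-1.11), and Mtrex and Dhx29, which lie between Il6st and Gzma, were not called. These neighbours were looked at after the values of Gzma, Gzmk and Esm1 were seen.

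Antisense and lincRNA genes were more often lower than higher in WT. Of 200 antisense genes 5.5% were higher and 38% lower (median log2 fold change -0.44), and of 228 lincRNA genes 9.21% were higher and 35.5% lower (median -0.46). Processed transcripts (107 genes, 4.67% higher and 37.4% lower) and bidirectional promoter lncRNA genes (39 genes, 0% higher and 25.6% lower) leaned the same way. Not every class without a protein product did so. Of 267 processed pseudogenes 3.37% were higher and 4.87% lower, and of 30 sense intronic genes 6.67% were higher and 3.33% lower. Of 10651 protein-coding genes 25.6% were higher and 25.2% lower (median -0.01). Protein-coding genes took 98.4% of counts in WT and 98.0% in DMSO (exact two-sided permutation p = 0.171, adjusted p = 0.571, n = 3 and 4). Reads of an antisense gene and its partner cannot be told apart unless strand was used in the counting. Over the chromosomes the share of genes higher ran from 20.5% to 28.5%. Over 5 bins each of exon length and of GC content the medians lay between -0.05 and 0.02.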
